A study of Homo sapiens with 6 samples.

Results

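The transcripts described here are the microRNA host genes of MDA-MB-231, a line of human breast cancer cells that lack hormone receptors and HER2 amplification. A host gene is transcribed as a long RNA that carries 1 or more microRNA hairpins in its exons or introns. The cells were cultured for 9 hours either with 5 µM mitocurcumin, a curcumin derivative directed to mitochondria, or with DMSO, the solvent, as control. Polyadenylated RNA of 3 libraries per group was sequenced, all from the unmodified parental line. Members were chosen by name and by level: 77 of 58656 gene rows had a symbol that begins with MIR and ends with HG, and 32 of these, selected on a raw sum of at least 60 estimated counts over the 6 libraries of both groups, are described. All 32 passed the filter on low counts, although 4 of them lay under its level in at least 1 library. Of the other 45 rows, 16 were at 0 in every library and 29 lay above 0 and under the threshold. Just inside it were MIR181A1HG with 62.1 and MIR3976HG with 78.0 counts in all, and just outside were MIR302CHG, the only one under the threshold that was deep enough to be tested, with 45.2 and MIR548A1HG with 44.3.

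A microRNA is made from its host transcript in steps. In the nucleus the enzyme DROSHA and its partner DGCR8 cut the hairpin out of the primary transcript, exportin 5 carries it to the cytoplasm, DICER1 trims it to a short duplex, and an Argonaute protein takes up the mature strand. The mature strand finds target mRNAs mainly through its seed, bases 2 to 8, so microRNAs with the same seed share many predicted targets whichever gene they come from. Libraries made from polyadenylated RNA hold the spliced host transcript and not the mature microRNA, so all values given here are of host transcripts. The level of a host need not follow that of its microRNAs.

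The hosts whose level differed between the groups in the test carry the microRNAs printed here, with RefSeq sequences (GRCh38.p14) and the seed in capitals. They are shown because the hosts are grouped by the seeds they carry. Of the 60 microRNA rows lying inside the 32 hosts on the same strand, all had a mature sequence in that table. For hairpins with a mature strand on each arm, the strand usually described as the more abundant is printed.
hsa-miR-22-3p in MIR22HG: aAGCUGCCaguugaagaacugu
hsa-miR-146a-5p in MIR3142HG: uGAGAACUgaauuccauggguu
hsa-miR-3142 in MIR3142HG: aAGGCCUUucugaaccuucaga
hsa-miR-221-3p in MIR222HG: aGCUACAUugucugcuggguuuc
hsa-miR-222-3p in MIR222HG: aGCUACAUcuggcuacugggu
hsa-miR-29b-3p in MIR29B2CHG: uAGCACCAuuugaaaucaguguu
hsa-miR-29c-3p in MIR29B2CHG: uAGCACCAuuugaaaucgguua
hsa-miR-23a-3p in MIR23AHG: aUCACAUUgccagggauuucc
hsa-miR-27a-3p in MIR23AHG: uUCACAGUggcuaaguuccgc
hsa-miR-24-3p in MIR23AHG: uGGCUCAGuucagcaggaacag
hsa-miR-17-5p in MIR17HG: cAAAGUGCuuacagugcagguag
hsa-miR-20a-5p in MIR17HG: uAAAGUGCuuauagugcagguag
hsa-miR-18a-5p in MIR17HG: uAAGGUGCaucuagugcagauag
hsa-miR-19a-3p in MIR17HG: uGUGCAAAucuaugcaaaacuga
hsa-miR-19b-3p in MIR17HG: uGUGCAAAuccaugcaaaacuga
hsa-miR-92a-3p in MIR17HG: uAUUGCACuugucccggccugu
hsa-miR-4453 in MIR4453HG: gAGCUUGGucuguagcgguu
hsa-miR-1915-3p in MIR1915HG: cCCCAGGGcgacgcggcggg
hsa-miR-34a-5p in MIR34AHG: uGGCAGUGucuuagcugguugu
hsa-miR-210-3p in MIR210HG: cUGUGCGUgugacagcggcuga
hsa-miR-503-5p in MIR503HG: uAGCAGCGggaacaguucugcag

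The pairs hsa-miR-221-3p and hsa-miR-222-3p, hsa-miR-29b-3p and hsa-miR-29c-3p, hsa-miR-17-5p and hsa-miR-20a-5p, and hsa-miR-19a-3p and hsa-miR-19b-3p each share their seed within 1 host. For MIR100HG, the remaining host that passed, the strands whose seeds other hosts carry are printed beside those hosts. Its miR-10526, whose seed none of the other hosts carries, is not printed.

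Of the 32 host genes, 9 rose and 3 fell after mitocurcumin at an adjusted p under 0.05 (edgeR, quasi-likelihood F-test, adjusted after Benjamini and Hochberg over the 16481 genes tested). Thus 37.5% of the host genes passed, against 32.5% of all genes tested, a share near that background, so the count of calls is no result about host genes. The higher hosts made up 28.1% of the 32, against 14.7% of all genes, and the lower hosts 9.38%, against 17.8%. The median log2 fold change of the host genes was 0.41, and that of all tested genes was -0.006. Levels are given in CPM (a gene's counts per 1000000 counts of its library after scaling between libraries), which are not divided by length and so are compared between libraries and not between genes. The groups did not overlap in CPM for 16 of 32 host genes (50.0%), against 44.9% of all genes tested. All 12 hosts that passed were among these 16. The 10 hosts with the lowest raw sums, all under that of MIR29B2CHG at 262 counts, had no call, with an SE of the log2 fold change of up to 0.53. In bulk RNA, fewer cells that express a host and less of its RNA per cell cannot be told apart.

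**Figure D1:**
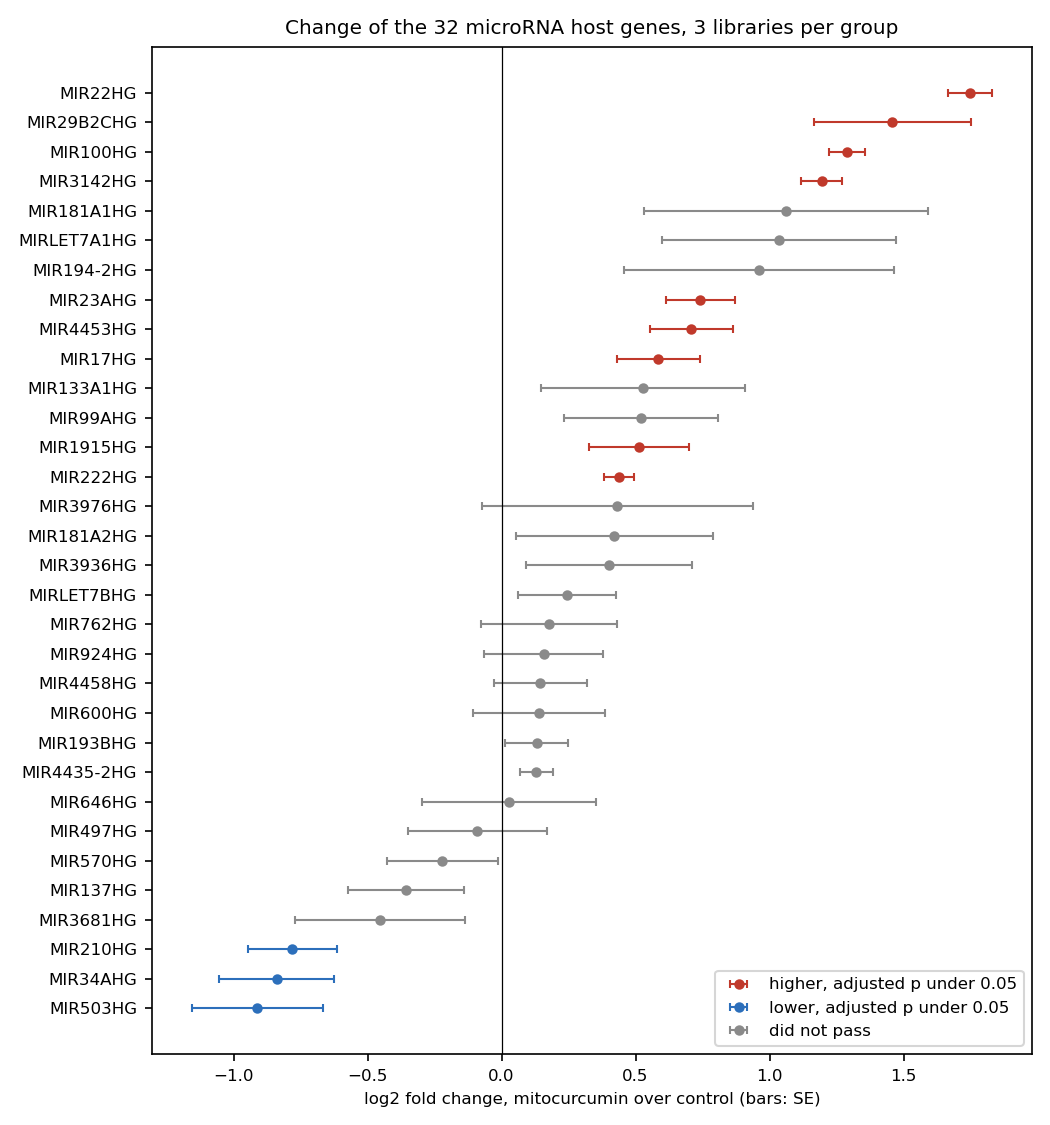
Log2 fold change of mitocurcumin over control for the 32 host genes, ordered by size, with bars for the SE over 3 libraries in each group. The 9 hosts that rose lie between 0.44 and 1.75, and the 3 that fell between -0.91 and -0.78.

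Library totals lay between 23146822 and 29104681 counts. The replicates are named biological in the labels, which do not say if cultures were separate, so p-values measure only the spread between these libraries. The column heading of mitocurcumin replicate 2 holds a sample number that breaks the run of the other headings, for a reason not given in the sources used here, and without that library 8 hosts rose and 3 fell. Control replicate 1 stood apart on the second principal component of log2 CPM, at 23.5, with the other 5 libraries between -13.02 and 6.42. The mesenchymal markers VIM, CD44 and AXL averaged 2337, 2116 and 671 CPM after mitocurcumin and 2163, 2095 and 679 CPM in controls. The hormone receptor genes ESR1 and PGR averaged under 0.3 CPM in both groups. ERBB2, the gene of HER2, averaged 32.6 CPM after mitocurcumin and 41.6 CPM in controls and fell (edgeR adjusted p = 0.015). The epithelial markers CDH1 and EPCAM averaged 2.43 and 20.1 CPM after mitocurcumin and 1.68 and 22.3 CPM in controls, and neither passed. Of 12 markers of leukocytes, endothelium, fibroblasts and luminal epithelium, 8 were tested, 0 rose and 4 fell (CD68, PECAM1, KRT8 and GATA3). Over all genes tested, 14.7% rose and 17.8% fell. A count over so few markers is no result about other cells. The luminal KRT8, KRT18 and GATA3 averaged 210, 157 and 9.25 CPM after mitocurcumin and 233, 165 and 13.7 CPM in controls. The sum of the 9 nonepithelial ones was 112, 118 and 95.9 CPM after mitocurcumin and 141, 131 and 131 CPM in controls, most of it from CD68. CD3E, VWF, CDH5 and DCN, which mark T cells, endothelium and fibroblasts, were under 0.1 CPM on average in both groups. Other markers of these and of leukocytes were above that: PECAM1 averaged 6.42 CPM after mitocurcumin and 12.9 CPM in controls, COL1A1 9.25 CPM after mitocurcumin and 8.52 CPM in controls, LUM 0.991 CPM after mitocurcumin and 1.02 CPM in controls, and PTPRC 1.001 CPM after mitocurcumin and 1.16 CPM in controls. The part of these markers in the changes of the host genes was not tested.

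MIR22HG had the largest rise (Entrez 84981, chromosome 17, 1711504 to 1716272, minus strand, build GRCh38 as for all coordinates here). Its microRNA, miR-22, is known as a brake on proliferation in several cell types. The host held 94.5, 78.9 and 95.6 CPM in the mitocurcumin libraries, against 27.5, 25.8 and 26.7 CPM in the control libraries. The treated libraries were all far above the controls, and mitocurcumin replicate 2 was the lowest of them. Its log2 fold change of mitocurcumin over control was 1.75 ± 0.08 (± SE, as for every change that follows), or 3.36-fold, at an adjusted p of 1.1e-10 in edgeR. In the GENCODE v29 annotation the MIR22 hairpin overlaps an exon of all 19 transcripts of the gene. WDR81, 251 bp away on the opposite strand, rose by 1.14 ± 0.19 (edgeR adjusted p = 1.7e-04), while TLCD2, 1127 bp away on the same strand, had a log2 fold change of 0.18 ± 0.16 and did not pass. The libraries were stranded, but whether the counting used strand is not given in the sources used here, so reads of close or overlapping genes on opposite strands may not have been told apart.

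MIR3142HG carries miR-146a, which dampens NF-kB signaling by acting on the signaling genes IRAK1 and TRAF6, together with miR-3142 (Entrez 107075116, chromosome 5, 160468251 to 160487426, plus strand). It held 66.02, 69.3 and 75.9 CPM in the mitocurcumin libraries, against 29.7, 32.1 and 30.3 CPM in the control libraries. Each treated library held more than any control, and the controls lay close together. The rise was 1.20 ± 0.08, or 2.29-fold (edgeR adjusted p = 5.1e-09). The MIR146A hairpin overlaps an exon of both v29 transcripts, and MIR3142 lies in an intron of both.

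The promoter window of MIR3142HG is printed because its host rose and NF-kB is a known activator of miR-146a transcription in monocytes. It covers 250 bases before to 50 after the RefSeq start (GRCh38.p14, chr5:160468001-160468300, plus strand), and the capitals mark a match to the textbook consensus for NF-kB that begins 120 bases before the start.
MIR3142HG promoter: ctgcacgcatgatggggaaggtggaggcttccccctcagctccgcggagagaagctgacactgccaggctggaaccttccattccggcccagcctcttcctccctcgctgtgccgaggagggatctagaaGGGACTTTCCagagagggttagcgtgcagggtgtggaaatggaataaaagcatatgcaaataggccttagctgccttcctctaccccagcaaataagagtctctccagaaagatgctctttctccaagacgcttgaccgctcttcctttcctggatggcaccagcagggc

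The search covered 5 motifs on both strands of 35116 RefSeq promoter windows of the same length, of which 41 belong to 30 of the 32 hosts. The NF-kB consensus was in 5.91% of all windows, in the window of MIR3142HG and in some windows of MIR100HG and MIR99AHG, which have several each. The matches of MIR100HG and MIR99AHG lay in windows of starts inside these genes (chr11:122100797-122101096 and chr21:16070864-16071163). Their windows at the gene start held none. A host is named if any of its windows matched, so hosts are not comparable with the share of windows. The ATF4 motif TGATGCAA was in 0.866% of all windows and in 0 hosts. The E-box CACGTG, which MYC can bind, was in 7.26% of all windows and in 0 hosts. For MIR17HG the window (chr13:91347437-91347736) ended before the host start of 91347820. For MIR22HG the window (chr17:1716161-1716460) was also placed on a start other than that of its gene row. For all 5 motifs, the search therefore covered only part of the window at the row start of these hosts. The AP-1 motif TGANTCA, with N for any base, was in 7.71% of all windows and in those of MIR181A1HG and MIR4435-2HG. The antioxidant response motif TGACNNNGC, whose first 4 letters can overlap an AP-1 match, was in 13.3% of all windows and in those of 6 hosts, of which MIR29B2CHG, MIR3142HG and MIR503HG passed the test. A match is a run of letters in a window and not a measured binding site.

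**Figure D2:**
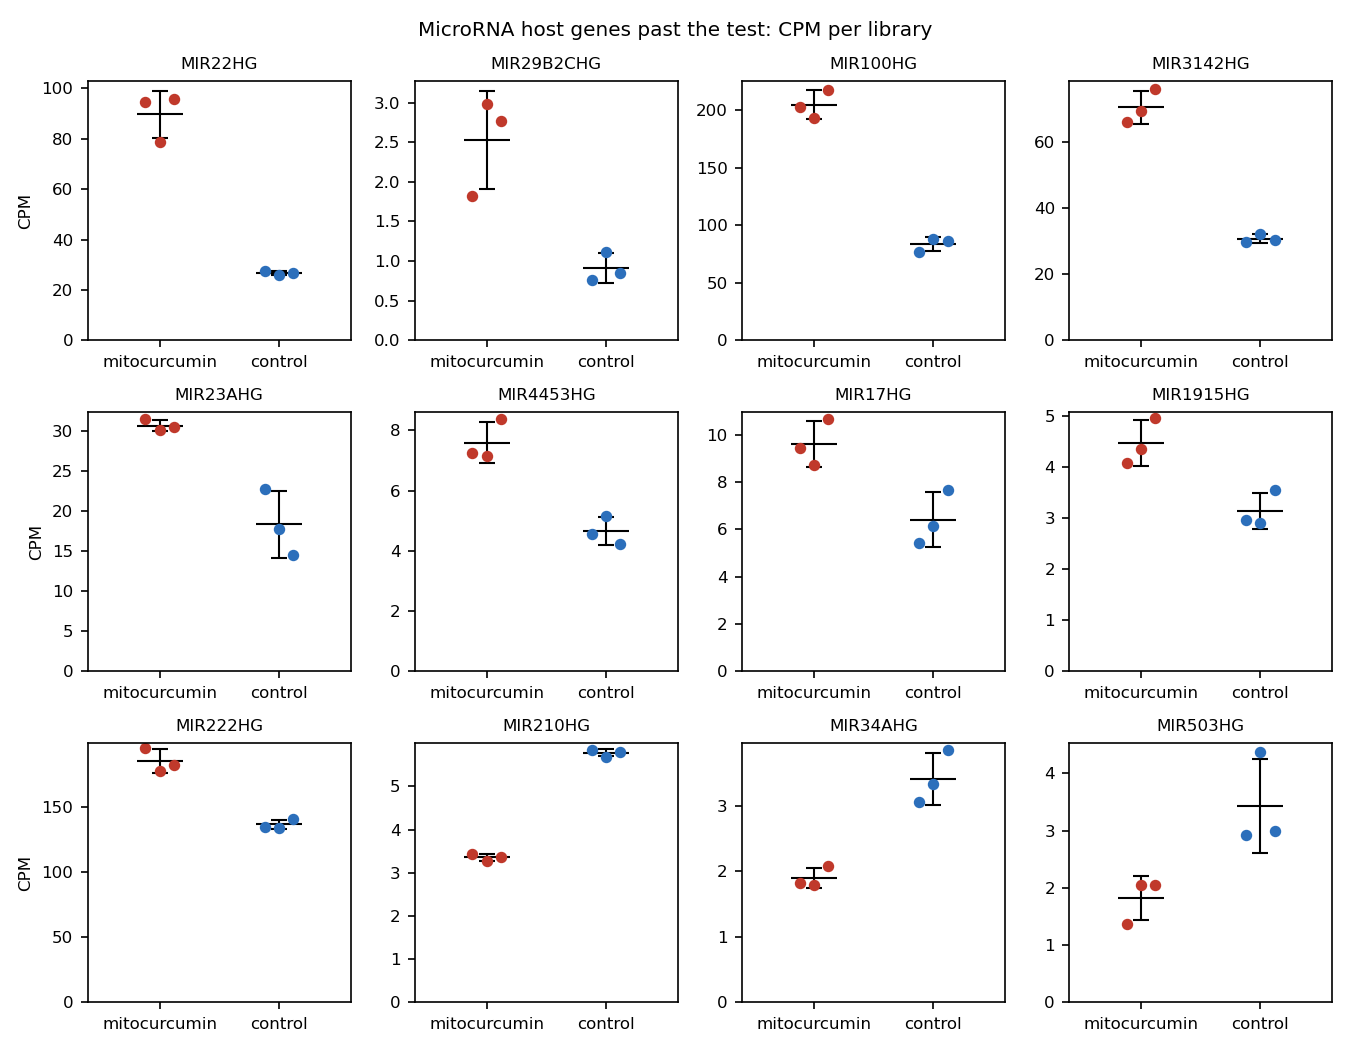
CPM in each library (points) for the 12 host genes that passed the test, with the mean (wide bar) and SD (whiskers) of 3 libraries per group, mitocurcumin left and control right. In every panel the 3 treated points lie all above or all below the 3 control points, and the vertical scale differs between panels.

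MIR100HG, which carries miR-100, let-7a-2, miR-125b-1 and miR-10526 over a span of 394543 bp, rose by 1.29 ± 0.07, or 2.44-fold (Entrez 399959, chromosome 11, 122028329 to 122422871, minus strand). It held 203, 193 and 218 CPM in the mitocurcumin libraries, against 76.7, 88.2 and 86.3 CPM in the control libraries. The lowest treated library held far more than the highest control, and the edgeR adjusted p was 2.8e-10. BLID, a gene row that lies inside MIR100HG on the same strand and may share its reads, rose by 1.30 ± 0.33 (edgeR adjusted p = 0.00623). MIR100HG and MIR222HG together held between 52.4% and 53.6% of the summed CPM of the 32 hosts, a sum that weights long transcripts more, in treated libraries and between 48.9% and 51.6% in controls. That sum was 745, 704 and 764 CPM in the mitocurcumin libraries and 433, 443 and 441 CPM in the controls. Without these 2 hosts it was 346, 333 and 363 CPM in the mitocurcumin libraries and 221, 221 and 213 CPM in the controls.

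The let-7 seed GAGGUAG was carried by 5 of the 32 hosts, the seeds of miR-100 and miR-125b by MIR100HG and MIR99AHG. The mature let-7a is identical in MIR100HG, MIRLET7A1HG and MIRLET7BHG, and so is miR-125b in MIR100HG and MIR99AHG. The strands with these seeds follow, with the seed in capitals.
hsa-let-7a-5p in MIR100HG, MIRLET7A1HG and MIRLET7BHG: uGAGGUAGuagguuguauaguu
hsa-let-7c-5p in MIR99AHG: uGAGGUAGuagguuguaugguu
hsa-let-7d-5p in MIRLET7A1HG: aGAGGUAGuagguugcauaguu
hsa-let-7f-5p in MIRLET7A1HG: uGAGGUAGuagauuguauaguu
hsa-let-7b-5p in MIRLET7BHG: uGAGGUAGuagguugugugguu
hsa-miR-4458 in MIR4458HG: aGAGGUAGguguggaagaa
hsa-miR-100-5p in MIR100HG: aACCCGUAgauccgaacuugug
hsa-miR-99a-5p in MIR99AHG: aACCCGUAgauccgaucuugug
hsa-miR-125b-5p in MIR100HG and MIR99AHG: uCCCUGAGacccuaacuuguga

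The let-7 microRNAs are known for holding back growth and stem cell programs through targets such as RAS and HMGA2. Of their hosts MIR100HG passed the test and the other 4 did not. MIRLET7A1HG held 0.809, 1.28 and 1.42 CPM in the mitocurcumin libraries, against 0.424, 0.967 and 0.299 CPM in the control libraries, and control replicate 2 lay above the lowest treated library. Its log2 fold change was 1.03 ± 0.44 (edgeR adjusted p = 0.0825). It passed without control replicate 2, at 1.69 (adjusted p = 0.0136 in edgeR, range over 14 alternatives 0.0136 to 0.263). LINC02603 overlaps it on the opposite strand and rose by 0.83 ± 0.20 (edgeR adjusted p = 0.00364).

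MIR99AHG, the counterpart of MIR100HG on chromosome 21, held 2.22, 1.705 and 1.66 CPM in the mitocurcumin libraries, against 1.02, 1.66 and 1.19 CPM in the control libraries. The lowest treated library lay at the level of the highest control, and the log2 fold change of 0.52 ± 0.29 did not pass (edgeR adjusted p = 0.188). MIRLET7BHG held 5.62, 4.77 and 5.47 CPM in the mitocurcumin libraries, against 5.25, 4.68 and 3.46 CPM in the control libraries. MIR4458HG held 9.501, 6.86 and 11.2 CPM in the mitocurcumin libraries, against 7.71, 9.78 and 7.51 CPM in the control libraries. In both the groups overlapped, and the log2 fold changes of 0.25 ± 0.18 for MIRLET7BHG and 0.15 ± 0.17 for MIR4458HG did not pass (edgeR adjusted p = 0.341 and 0.568). The difference between MIR100HG and these hosts in log2 fold change was not tested.

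**Figure D3:**
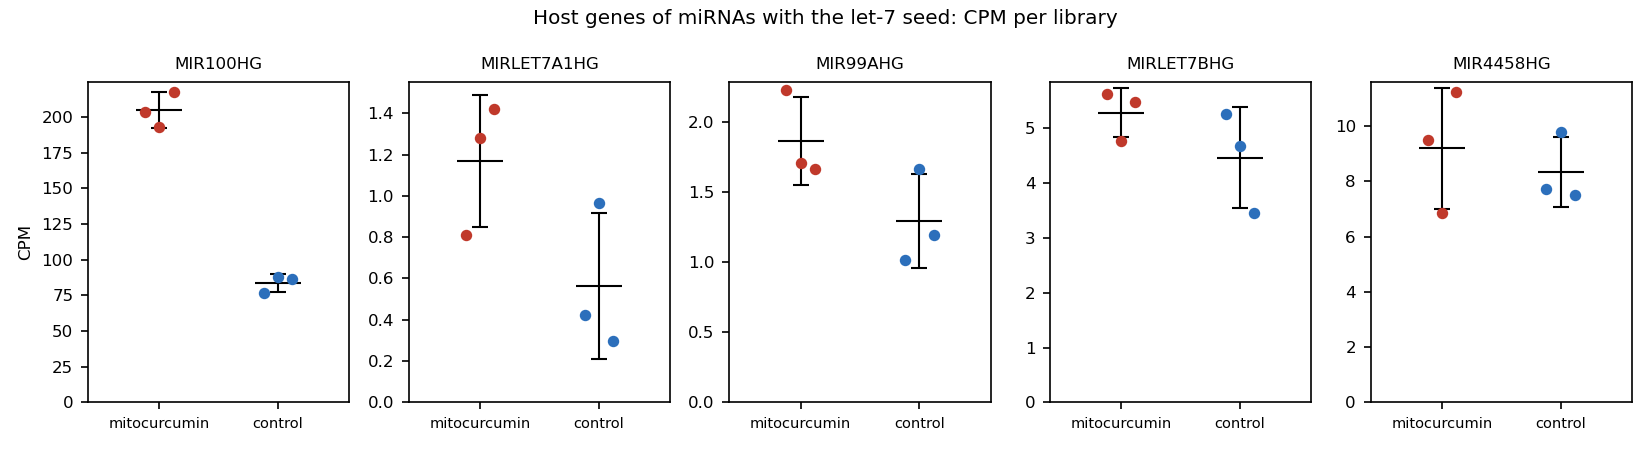
CPM in each library (points) of the 5 host genes that carry a microRNA with the let-7 seed, with mean and SD of 3 libraries per group and a separate vertical scale from 0 in each panel. MIR100HG holds between 193 and 218 CPM after mitocurcumin and between 76.7 and 88.2 CPM in controls, while the points of the other 4 hosts overlap between groups.

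MIR222HG carries miR-221 and miR-222, which act on the cell cycle inhibitor CDKN1B and are known to be abundant in basal-like breast cancer lines (Entrez 104457406, chromosome X, 45745214 to 45770267, minus strand). It held 196, 178 and 183 CPM in the mitocurcumin libraries, against 135, 134 and 141 CPM in the control libraries. The treated libraries were all higher than the controls, by 0.44 ± 0.06, or 1.36-fold (edgeR adjusted p = 1.3e-05). Both hairpins lie in introns of the v29 transcripts.

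MIR23AHG carries the cluster of miR-23a, miR-27a and miR-24-2 (Entrez 284454, chromosome 19, 13834516 to 13842918, minus strand). It held 31.4, 30.05 and 30.5 CPM in the mitocurcumin libraries, against 22.8, 17.7 and 14.5 CPM in the control libraries. The treated libraries lay within a narrow range and the controls were spread out, with control replicate 1 nearest to the treated ones. The rise was 0.74 ± 0.13 (edgeR adjusted p = 3.2e-04).

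MIR17HG carries the miR-17-92 cluster of 6 hairpins, a target of MYC that promotes growth in many tumors (Entrez 407975, chromosome 13, 91347820 to 91354575, plus strand). It held 9.42, 8.74 and 10.7 CPM in the mitocurcumin libraries, against 5.42, 6.15 and 7.68 CPM in the control libraries. The groups did not overlap, though the highest control was near the lowest treated library. The rise of 0.59 ± 0.15 had an edgeR adjusted p of 0.00728, which was 0.056 without mitocurcumin replicate 3 (range over 15 alternatives 0.00156 to 0.056).

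MIR29B2CHG carries miR-29b-2 and miR-29c, whose known targets include collagens and DNA methyltransferases (Entrez 100128537, chromosome 1, 207801518 to 207822703, minus strand). It held 1.82, 2.98 and 2.77 CPM in the mitocurcumin libraries, against 0.763, 1.12 and 0.853 CPM in the control libraries. Every treated library was above every control, at low counts throughout. Its rise of 1.46 ± 0.29, or 2.75-fold, was the largest after that of MIR22HG, with a wider error (edgeR adjusted p = 0.00101). LOC148696, which overlaps it on the opposite strand, had a log2 fold change of 0.76 ± 0.44 and did not pass.

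MIR4453HG, host of miR-4453 (Entrez 54553, chromosome 4, 152536264 to 152539263, plus strand), held 7.24, 7.16 and 8.38 CPM in the mitocurcumin libraries, against 4.58, 5.14 and 4.22 CPM in the control libraries. The groups were apart, and the rise was 0.71 ± 0.15 (edgeR adjusted p = 0.00197). FBXW7, a ubiquitin ligase subunit whose gene lies 172 bp away on the opposite strand, rose by 0.30 ± 0.08 (edgeR adjusted p = 0.0091).

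MIR1915HG, host of miR-1915 (Entrez 399726, chromosome 10, 21492658 to 21497260, minus strand), held 4.08, 4.35 and 4.95 CPM in the mitocurcumin libraries, against 2.97, 2.90 and 3.54 CPM in the control libraries. Its groups were apart by a small margin. The rise of 0.51 ± 0.19 lay close to the threshold, with an edgeR adjusted p of 0.0453, and the call was lost in 7 of 15 alternatives (range 0.0366 to 0.179). These were DESeq2, no filter on low counts, and leaving out any 1 of mitocurcumin replicates 1, 2 and 3 or control replicates 1 and 2.

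The 3 hosts that fell were MIR210HG, MIR34AHG and MIR503HG. MIR210HG is the host of miR-210, a textbook target of hypoxia-inducible factors (Entrez 100506211, chromosome 11, 565657 to 568457, minus strand). It held 3.44, 3.28 and 3.36 CPM in the mitocurcumin libraries, against 5.85, 5.68 and 5.802 CPM in the control libraries. Both groups were tight and far apart, and the log2 fold change was -0.78 ± 0.17, or 0.582-fold (edgeR adjusted p = 0.00157). RASSF7, 1632 bp away on the opposite strand, had a log2 fold change of 0.02 ± 0.29 and did not pass.

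MIR34AHG is the host of miR-34a, known for slowing the cell cycle (Entrez 106614088, chromosome 1, 9148011 to 9182338, minus strand). It held 1.82, 1.79 and 2.08 CPM in the mitocurcumin libraries, against 3.05, 3.33 and 3.84 CPM in the control libraries. All 3 treated libraries were below all controls, with a log2 fold change of -0.84 ± 0.21, or 0.559-fold (edgeR adjusted p = 0.006).

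MIR503HG carries miR-503, and the neighbouring hairpin of miR-424 overlaps its first 17 bp, while the mature strands of miR-424 lie outside it (Entrez 84848, chromosome X, 134543377 to 134546630, minus strand). It held 1.37, 2.05 and 2.04 CPM in the mitocurcumin libraries, against 2.92, 4.37 and 2.99 CPM in the control libraries. Control replicate 2 was the highest library and mitocurcumin replicate 1 the lowest. The groups did not overlap. The log2 fold change was -0.91 ± 0.25, or 0.532-fold (edgeR adjusted p = 0.0086), and the call was lost without either of those libraries, at an adjusted p of 0.0572 without mitocurcumin replicate 1 and 0.0631 without control replicate 2 (range over 15 alternatives 0.00193 to 0.0631).

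The seed of miR-424, the neighbour of MIR503HG, is also carried by both microRNAs of MIR497HG. These microRNAs belong to the extended family of miR-15 and miR-16, which act on cyclins and other cell cycle genes, and their seeds are in capitals.
hsa-miR-424-5p just before the start of MIR503HG: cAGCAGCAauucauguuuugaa
hsa-miR-497-5p in MIR497HG: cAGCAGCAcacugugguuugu
hsa-miR-195-5p in MIR497HG: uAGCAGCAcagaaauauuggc

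MIR497HG held 2.67, 3.24 and 2.46 CPM in the mitocurcumin libraries, against 4.03, 3.02 and 1.83 CPM in the control libraries. The controls covered the whole range of the treated libraries, and the log2 fold change of -0.09 ± 0.26 did not pass (edgeR adjusted p = 0.828). It overlaps C17orf49 and its readthrough row on the opposite strand, which had log2 fold changes of 0.12 ± 0.16 and 0.06 ± 0.12, and neither passed.

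**Figure D4:**
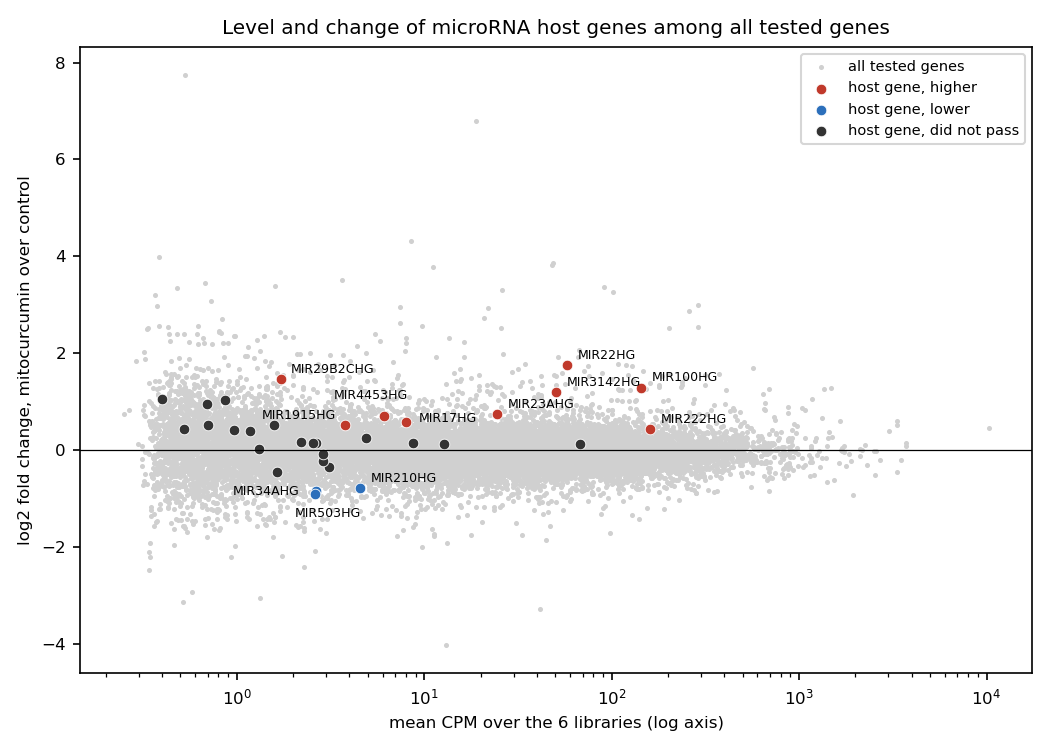
Mean CPM over the 6 libraries (log axis) and log2 fold change of mitocurcumin over control for the 16481 genes tested (grey) and the 32 host genes (coloured by call). MIR22HG, MIR100HG and MIR3142HG stand out at 1.75, 1.29 and 1.20 with high counts, while many hosts that did not pass lie at low CPM.

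The other 20 hosts did not pass, with log2 fold changes from -0.45 for MIR3681HG to 1.06 for MIR181A1HG. A p that misses the threshold does not show that a host did not change. MIR4435-2HG had the smallest SE among them and held 70.7, 71.2 and 70.4 CPM in the mitocurcumin libraries, against 65.6, 62.95 and 65.5 CPM in the control libraries. The treated libraries all lay slightly higher, and the log2 fold change of 0.13 ± 0.06 had an edgeR adjusted p of 0.12. It is nearly identical in part to CYTOR, with which it may share reads, and CYTOR had a log2 fold change of -0.12 ± 0.07 and did not pass either (edgeR adjusted p = 0.23). MIR193BHG, host of miR-193b and miR-365a, held 12.98, 14.4 and 12.5 CPM in the mitocurcumin libraries, against 12.2, 13.03 and 11.05 CPM in the control libraries, and its groups overlapped at a log2 fold change of 0.13 ± 0.12.

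Some hosts at low counts had large log2 fold changes with wide errors. MIR181A1HG and MIR181A2HG, both hosts of miR-181a and miR-181b, which are known for roles in lymphocytes, had log2 fold changes of 1.06 ± 0.53 and 0.42 ± 0.37. MIR181A1HG held 0.445, 0.639 and 0.554 CPM in the mitocurcumin libraries, against 0.127, 0.425 and 0.213 CPM in the control libraries, and its groups were apart by a narrow margin. MIR194-2HG, host of miR-192 and miR-194-2, was at 0.96 ± 0.50 and passed only without control replicate 2, at 1.63 with an edgeR adjusted p of 0.043 (range over 14 alternatives 0.043 to 0.584). MIR3936HG and MIR133A1HG also had groups that did not overlap, at 0.40 ± 0.31 and 0.53 ± 0.38, and overlap SLC22A4 and MIB1 on the opposite strand, which were at -0.04 ± 0.14 and -0.06 ± 0.06 and did not pass. MIR137HG, MIR570HG and MIR3681HG had negative log2 fold changes of -0.36 ± 0.22, -0.22 ± 0.21 and -0.45 ± 0.32. The remaining hosts, MIR600HG, MIR646HG, MIR762HG, MIR924HG and MIR3976HG, lay between 0.03 and 0.43. In all, 10 of the 32 hosts overlap another gene row with a raw sum of at least 60, 7 of them on the opposite strand.

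The 32 hosts lie on 17 chromosomes and span from 2801 to 571233 bp, and 14 of them are on the plus strand. They hold 1 hairpin in 15 cases and 2 to 6 in 17. In the v29 annotation, 28 of the 60 hairpins overlap an exon of at least 1 transcript of their host and 31 lie in introns, while MIR570 had no annotated host transcript there. Rows of the hairpins themselves held few counts: 33 of 60 were at 0 in all libraries, and this applied to 25 of the exonic and 8 of the intronic ones. MIR22, in an exon of every annotated transcript of its host, was at 0 in all libraries. How reads over both a hairpin and a host exon were assigned is not given in the sources used here. A 0 in a hairpin row therefore does not show that no reads lay there. MIR125B1, in an intron of MIR100HG, held 3.55, 8.21 and 6.19 estimated counts in the mitocurcumin libraries and 0.694, 0 and 0 in the control libraries. MIR2682, over an exon of MIR137HG, held 4.66, 6.68 and 11.1 counts after mitocurcumin and 18.5, 12.8 and 12.2 in controls. Both rows differed between the groups without overlap and were not tested. They were picked after their values were seen and describe reads at the locus, not mature microRNA.

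**Figure D5:**
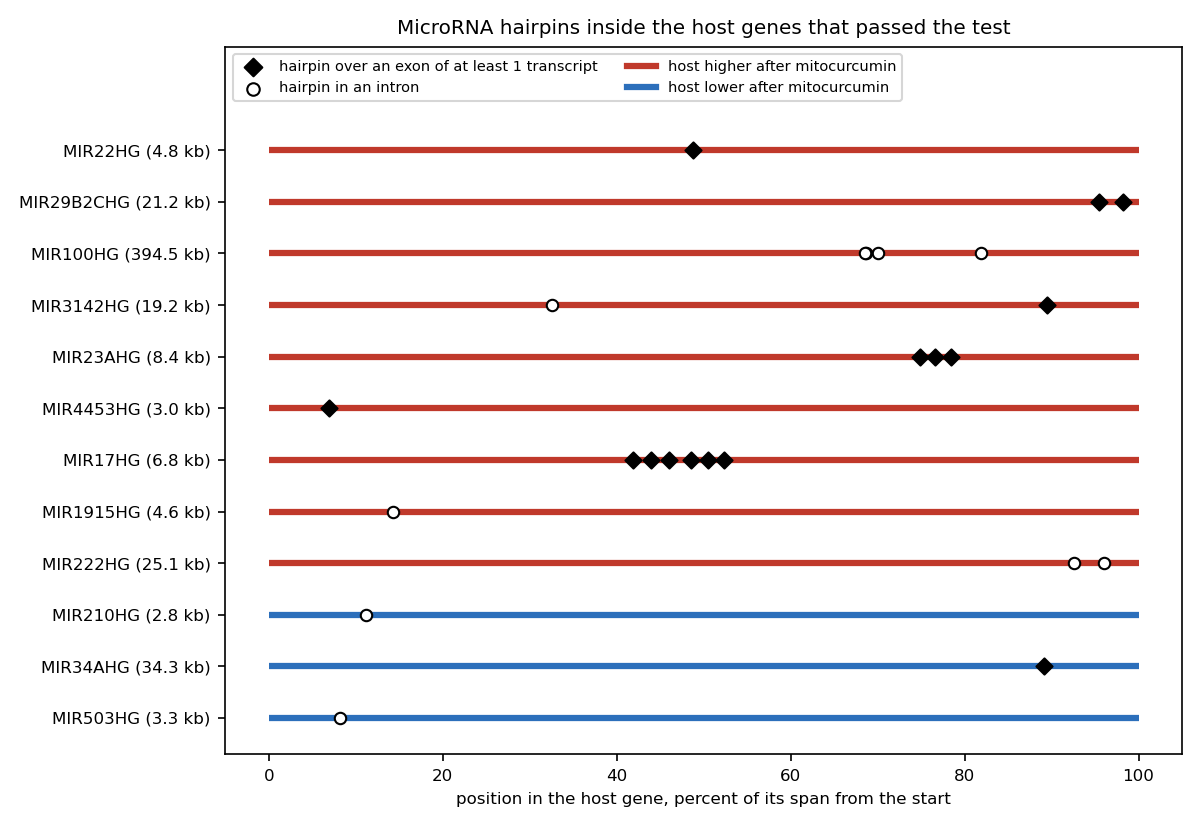
Position of each microRNA hairpin along the 12 host genes that passed, in percent of the gene's span from its start, with red bars for hosts that rose and blue bars for hosts that fell. Filled diamonds mark hairpins over an exon in GENCODE v29 and open circles hairpins in introns, and MIR17HG holds the most hairpins with 6. MIR424, which only partly overlaps MIR503HG, is not drawn.

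Genes of the microRNA pathway itself moved by small amounts in both directions. Of 29 tested genes of a list of 30 processing factors, 4 rose and 8 fell, and their median log2 fold change was -0.014. That is 41.4% against 32.5% of all genes. This list was chosen with earlier results of these data known, so the share is no result about processing factors. SRRT, which links the cap-binding complex to primary microRNA processing, averaged 103 ± 2.96 CPM after mitocurcumin and 147 ± 9.06 CPM in controls (SD, n = 3 each), a change of -0.52 ± 0.06 (edgeR adjusted p = 4.0e-06). DROSHA, the nuclear enzyme that cuts the hairpin out, averaged 137 ± 6.33 CPM after mitocurcumin and 174 ± 9.13 CPM in controls (SD, n = 3 each), a change of -0.35 ± 0.06 (edgeR adjusted p = 2.1e-04). DDX17, a helicase of the DROSHA complex, fell by 0.34 on the log2 scale. The largest rises were those of TENT2, which adds nucleotides to mature microRNA ends, at 0.37 ± 0.07, and of the Argonaute genes AGO3 at 0.30 ± 0.07 and AGO4 at 0.30 ± 0.09. DGCR8, the partner of DROSHA, was also among the 4 that rose, at 0.29 ± 0.06, and DICER1 was among the 8 that fell, at -0.31 ± 0.06. AGO2, the Argonaute that slices targets, was at 0.03 ± 0.06 and XPO5, exportin 5, at -0.14 ± 0.06, and neither passed. LIN28B, which blocks let-7 maturation, was under the filter on low counts in this line.

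Among transcription factors described elsewhere as regulators of microRNA host genes, 7 of 17 tested rose and 5 fell, with a median log2 fold change of -0.08. That is 70.6% against 32.5% of all genes. The list was chosen with earlier results of these data known, so this share is no result about regulators. MYC, which activates MIR17HG, averaged 165 ± 14.5 CPM after mitocurcumin and 109 ± 10.7 CPM in controls (SD, n = 3 each), a change of 0.61 ± 0.08 (edgeR adjusted p = 1.3e-05). E2F1 and E2F2, cell cycle factors that bind the same locus, changed by -0.65 ± 0.10 and -1.29 ± 0.17, while E2F3 at -0.12 ± 0.06 did not pass. NFKB1 and RELA, subunits of NF-kB, rose by 0.20 ± 0.05 and 0.26 ± 0.07. EPAS1, which encodes HIF-2alpha, had the largest rise of the list at 1.03 ± 0.06 and HIF1A did not pass at -0.08 ± 0.05. ETS1, a factor of invasive cells, rose by 0.49 ± 0.05. FOS and JUN, which form AP-1, changed by -3.28 ± 0.22 and -0.81 ± 0.06, and FOSL1, another AP-1 subunit, did not pass at -0.08 ± 0.07. No relation between any of these factors and the hosts was tested.

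Many microRNAs lie in genes that are not named after them. Of 775 tested protein-coding rows that hold a microRNA on the same strand, 100 rose and 226 fell (42.1%), with a median log2 fold change of -0.09, and of 29 other noncoding hosts 6 rose and 3 fell (31.0%), with a median of 0.09. The named hosts, with 9 higher and 3 lower and a median of 0.41, were not tested against these sets. DLEU2, the noncoding host of miR-15a and miR-16-1, changed by -0.41 ± 0.11 (edgeR adjusted p = 0.00887), and NEAT1, a nuclear RNA of paraspeckles, rose by 0.65 ± 0.07. PVT1 rose by 0.48 ± 0.16 with overlapping groups, SLC44A3-AS1 changed by -0.53 ± 0.13, LOC127898559 by -0.78 ± 0.10 and CZ1P-ASNS by 3.27 ± 0.07. CZ1P-ASNS is a readthrough row that may share reads with ASNS. Among protein-coding hosts the largest rises were those of the cytokine GDF15 at 3.50 ± 0.27, the stress factor DDIT3 at 2.94 ± 0.14 and the proapoptotic BBC3 at 2.34 ± 0.27, and the largest falls those of ST6GALNAC5 at -1.62 ± 0.24, UHRF1 at -1.42 ± 0.07 and LFNG at -1.39 ± 0.19. Host genes of small nucleolar RNAs (SNHG) had 6 higher and 3 lower of 24 tested (37.5%), with a median log2 fold change of 0.03. Noncoding RNA rows as a whole had 188 higher and 99 lower of 1974 (14.5%), with a median of 0.13.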

How the data were processed

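Per the labels' protocols, total RNA from a Trizol preparation went through poly(A) capture into stranded KAPA libraries. GRCh38 is the build named in the submitters' processing notes, and RefSeq the gene model in the file headers; the sources used here do not name an aligner or counter. The authors deposited estimated counts per gene without scaling, of which 20.4% to 21.7% of those above 0 were whole numbers (within 1e-06). A second deposited table holds log2 values, which equalled log2 of the count over a library factor, with anything below 0 set to 0.

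Rounded counts entered a robust quasi-likelihood F-test (edgeR 4.0.16 under R 4.3.3) after TMM scaling and filterByExpr, set to 10 counts and a total of 15, with group as the only term and Benjamini-Hochberg adjustment over 16481 genes. SEs were taken as coefficient over root F. CPM were computed from rounded counts with TMM-scaled totals and are not divided by transcript length. Libraries of 1 group differed by more than sampling noise (chi-square per gene 5.31 to 18.7), and the fitted coefficient of variation was 8.43%. Alternatives used DESeq2 1.42.0, limma 3.58.1, other scalings and filters, unrounded counts, a replicate term and each library left out.

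The hosts and gene lists were chosen with earlier results of these data known. Every host with a raw sum of at least 60 is described, and the 3 called genes with the largest change in each direction at a mean CPM of at least 1 are named from each list; DGCR8, DICER1, AGO2, XPO5, LIN28B, the regulators beyond those 3 and the genes nearest to a called host were named after their values were seen. The values of 1 gene of the regulator list are not reported here. Start and end of 30 of 32 hosts equal those in the RefSeq table (GRCh38.p14) that gave the sequences.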

Additional observations from a re-analysis of the deposited data

How the results depend on the processing

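The number of host genes that passed stayed within 1.5 times of 12 under all alternatives run. It was 10 to 12 with 1 library left out, 11 with DESeq2 or no filter on low counts, and 13 with the replicate block. At an adjusted p under 0.01 it was 11. With raw sums of at least 30 or 120 it was 12, which is no check of stability. No host that passed had under 262 counts, and the lower threshold added only MIR302CHG to the tested hosts. Of the 12 hosts, 9 passed in every alternative, and MIR17HG, MIR1915HG and MIR503HG lost the call in some. The direction turned only in hosts that had not passed: MIR646HG at -0.025 with limma voom, -0.039 with limma on the deposited values and -0.19 to 0.28 with 1 library left out, and with 1 library left out MIR4458HG (-0.027 to 0.33), MIR497HG (-0.32 to 0.19) and MIR762HG (-0.024 to 0.32); the cause was not tested. MIRLET7A1HG passed with the replicate block, at 1.10 (edgeR adjusted p = 0.0449); the block ended no call and moved no count by over 1.5 times. Same-numbered libraries correlated at 0.13, 0.018 and -0.010 in their deviations from the group means, and other pairs at -0.13 to 0.11. With 3 libraries per group these deviations are tied to each other. The correlations therefore cannot decide whether the replicate numbers pair the samples. No scaling moved the median of all genes by over 0.1 on the log2 scale. MIR181A1HG, MIRLET7A1HG and MIR194-2HG had few counts, and log2 fold changes near 1 did not pass there at SEs of 0.44 to 0.53; without control replicate 2, MIRLET7A1HG and MIR194-2HG passed.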
